A study of Mus musculus with 6 samples.

Results

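Solute carriers are the genes whose symbol begins with Slc and a family number, and this account follows them in mouse embryonic stem cells in which the transcriptional repressor REST was targeted by a short hairpin RNA (shRNA). The members were the Slc probes that lay above background on at least 3 of the 6 arrays. Slc2a1, Slc2a3, Slc16a3, Slc3a2, Slc7a11, Slc17a7, Slc22a3 and Slc22a18 were left out of the definition. Of 464 such probes for 319 genes on the array, 216 probes for 169 genes met the rule. They stood among 12406 tested probes for 8740 genes in the whole data set, of 25697 probes measured. The members were thus chosen by their detection score, and so being above background is no finding here. The third highest score of the 6 arrays, which decides the matter, was 0.951 for the nearest probe inside the threshold, of Slc47a2. It was 0.946 for another probe of the same gene just outside it. Slc23a2 lay just inside at 0.952, and Slc30a4 and Slc43a2 just outside at 0.945.

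Solute carriers are membrane proteins that move ions, nutrients, metals, nucleotides and transmitters across the plasma membrane and the membranes of organelles. They work as uniporters, as symporters driven by an ion gradient, or as exchangers, and the family number groups proteins of related sequence, often with related substrates. In neurons, members of the Slc1, Slc6, Slc12, Slc17, Slc18 and Slc32 families clear or package transmitters and set the chloride gradient. REST represses many neuronal genes in cells that are not neurons, and it binds a DNA element known as RE1.

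The cells were E14, a mouse embryonic stem cell line. The control group was 3 samples with the empty pSuper vector, a plasmid that drives hairpin RNAs, and the other group was 3 samples with an shRNA against REST, both taken at 72 h. No other allele or agent is named for either group. Total RNA was labelled as biotin cRNA and hybridised to Illumina bead arrays of 1 colour, 1 array per sample. Levels below are background-corrected, quantile-normalised log2 intensities, and a level can be compared between arrays for 1 probe but not between probes. Arrays are listed as replicates 1, 2 and 3 of each group. The labels do not say that a number shared by a control and a knockdown array marks a pair.

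Arrays had mean intensities of 442 to 473, and 46.4% to 49.0% of all probes lay above background. Between 202 and 221 Slc probes were above background on each array. Across the 216 member probes, levels correlated at 0.987 to 0.992 between arrays of a group and at 0.957 to 0.977 between groups. These correlations run over probes of shared arrays and are a description. All 10 embryonic stem cell markers were above background, and their summed intensity was 146000 to 157000 in control and 134000 to 141000 in knockdown samples, with Zfp42 called higher and Fgf4 and Pou5f1 lower. Of 9 neuronal markers, Elavl3, Rbfox3 and Map2 were tested and called higher. The other 6 were above background on no array, and the list's summed intensity was 285 to 332 in control and 591 to 736 in knockdown samples. None of the tested glial (2 of 6), fibroblast (2 of 8), trophoblast (1 of 6) or endoderm (1 of 7) markers was called. The part of these shifts in the changes described here was not tested. In such bulk RNA, a change in the share of a cell type and a change in RNA per cell cannot be told apart. The Rest probe itself was above background on no array, so the knockdown could not be checked from it.

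Among the 169 solute carrier genes, 27 were called higher and 19 lower in REST shRNA cells, at an adjusted p under 0.05 from limma with Benjamini-Hochberg adjustment over all tested probes. This is 27.2% of the members, against 27.0% of all tested genes. The calls were 16% higher and 11.2% lower, against 13.9% and 13.1% of all tested genes. A share so near the background is not a result about solute carriers as a group. The median log2 change was 0.02, against 0.00 over all tested genes. The changes ran from -0.92 to 2.15, and the 3 knockdown arrays did not overlap the 3 control arrays for 78 genes, or 46.2%, against 45.3% of all tested genes. Of the called members, 5 rose at least 2-fold and 0 fell that far, against 164 and 101 of the 8740 tested genes. At 1.5-fold the counts were 14 and 9, against 629 and 533. The counts by class given below stand against the same shares of all tested genes, and no class was tested as a group. Of the 136 members above background on all 6 arrays, 22 were called higher and 16 lower. A member seen mainly in 1 group entered the list through that group, so the counts cover the members that passed and not every solute carrier. Slc5a4b, Slc36a1 and Slc35f3 were above background on no control array, and Slc6a12 on no knockdown array.

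Leaving out 1 array in turn gave 17 to 23 genes higher and 12 to 17 lower. The count of rises was 17 without control replicate 1, without knockdown replicate 2 or without knockdown replicate 3, and the count of falls was 12 without control replicate 1. With the authors' ratios, on which the median of all genes shifted by 0.10, 73.3% of the called members were higher, compared with 58.7% in the fit given here. Over all tested genes the same share was 71.7% and 51.4%. All 46 called genes had the same sign on that scale, also after the shift was removed. Nothing in the labels says that replicates were separate cultures, and a p-value here weighs a difference against the spread of these 6 arrays alone, whose source may be technical. For 3 arrays against 3, the smallest p of an exact permutation test on 1 gene would be 0.10.

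**Figure D1:**
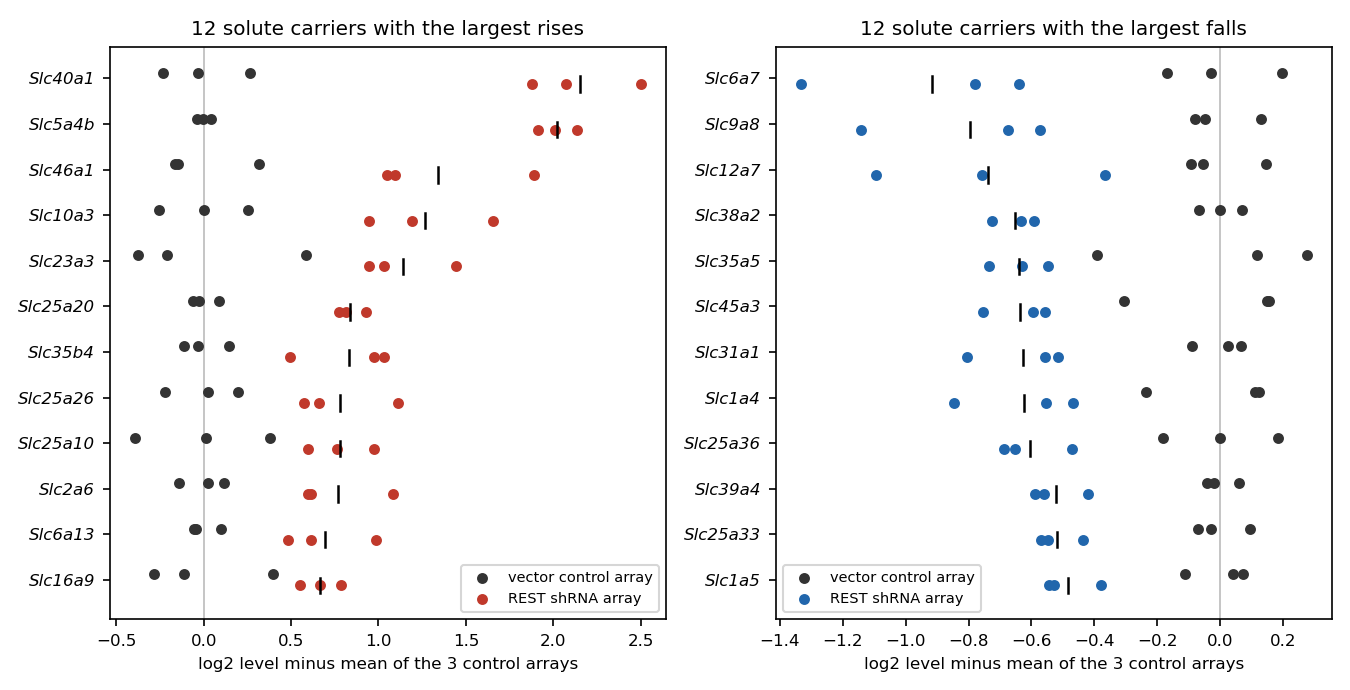
Log2 level of each array minus the mean of the 3 control arrays, on the x axis, for the 12 solute carriers with the largest rises (left) and the 12 with the largest falls (right) among called genes whose groups do not overlap. Each point is 1 array, dark for vector control and coloured for REST shRNA, and the bar is the knockdown mean; Slc40a1 and Slc5a4b, the latter above background on no control array, stand at 2.15 and 2.02, and the lowest bar on the right, Slc6a7, at -0.92.

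Of 16 metal carriers 2 rose, among them Slc40a1, and 3 fell. Slc40a1, or ferroportin, the exporter through which iron leaves cells, measured 6.96, 6.76 and 7.26 in control samples and 8.87, 9.06 and 9.49 in knockdown samples. All 3 knockdown arrays lay above every control array, a rise of 2.15 ± 0.18 (SE) on the log2 scale, or 4.44-fold (adjusted p = 0.000181). Slc11a2, or DMT1, which imports ferrous iron into the cell, was not called (change of -0.12, adjusted p = 0.474). Slc30a1, or ZnT1, which exports zinc across the plasma membrane, measured 5.56, 5.61 and 5.37 in control and 5.91, 6.17 and 5.86 in knockdown samples. The groups did not overlap, and the rise was 0.47 ± 0.12 (SE; adjusted p = 0.0246). The 5 other Slc30 genes tested, most of them zinc carriers of organelles, were not called.

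Slc31a1, or CTR1, the high-affinity copper importer, was at 11.29, 11.45 and 11.41 in control and at 10.83, 10.87 and 10.58 in knockdown samples. Its knockdown arrays all lay below its control arrays, a change of -0.63 ± 0.12 (SE; adjusted p = 0.00577). The zinc importer Slc39a4, or ZIP4, stood at 10.63, 10.71 and 10.61 against 10.06, 10.23 and 10.09, again without overlap. The change was -0.52 ± 0.10 (SE; adjusted p = 0.0073), while its other tested probe gave -0.24 (adjusted p = 0.272). Slc11a1, or NRAMP1, known as a divalent metal transporter of the phagosomes of macrophages, measured 10.76, 10.53 and 10.52 against 10.33, 10.04 and 10.13. It fell by 0.44 on this probe (adjusted p = 0.0301), while its other probes gave -0.68 (adjusted p = 0.00466), -0.10 (adjusted p = 0.542) and -0.02 (adjusted p = 0.929). The probes at -0.10 and -0.02 were near background and had little room to fall. Their control means were 5.16, where the lowest level above background on control arrays was 4.96 to 5.08. The 4 other Slc39 genes tested, which also carry zinc into the cytosol, were not called, at -0.18 for Slc39a13, -0.05 for Slc39a11, 0.04 for Slc39a7 and 0.14 for Slc39a6. The median of the metal carriers was -0.08. The calls of Slc11a1 and Slc30a1 depended on single arrays. The adjusted p of Slc11a1 was 0.0941 and 0.058 without control replicates 1 and 2, and 0.103 and 0.0835 without knockdown replicates 2 and 3, and that of Slc30a1 was 0.0522 and 0.0721 without control replicates 1 and 3 and 0.0867 without knockdown replicate 2.

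The promoters of Slc30a1 and Slc11a1 are shown because the first is a known mouse target of the zinc-sensing factor MTF1 and the second holds the letters of both arms of the RE1 element. Each runs from 250 bases before to 50 after the annotated start, 5′ to 3′ on the strand of the gene, and comes from RefSeq on GRCm38.p6. The Slc30a1 promoter is chr1:191906531-191906830, plus strand, and its capitals mark the metal response element (TGCGCNC or TGCACNC, searched on both strands), here on the opposite strand. The Slc11a1 promoter is chr1:74374953-74375252, plus strand, and its capitals mark CAGCACC and GGACAG, the left and right arm of RE1.
Slc30a1: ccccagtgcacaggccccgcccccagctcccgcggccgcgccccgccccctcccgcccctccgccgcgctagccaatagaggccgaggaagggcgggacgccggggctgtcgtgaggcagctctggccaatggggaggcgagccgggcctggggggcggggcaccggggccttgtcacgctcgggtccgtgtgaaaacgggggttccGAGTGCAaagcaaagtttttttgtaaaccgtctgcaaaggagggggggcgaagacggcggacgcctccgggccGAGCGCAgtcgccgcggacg
Slc11a1: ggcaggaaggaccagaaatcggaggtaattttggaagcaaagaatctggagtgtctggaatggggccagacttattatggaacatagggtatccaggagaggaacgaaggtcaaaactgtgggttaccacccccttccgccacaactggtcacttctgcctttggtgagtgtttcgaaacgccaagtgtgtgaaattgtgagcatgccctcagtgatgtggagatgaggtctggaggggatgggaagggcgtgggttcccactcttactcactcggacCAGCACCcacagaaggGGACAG

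In Slc11a1 the left arm begins 29 bases and the right arm 45 bases after the start. Among the called members, Slc25a1 and Slc29a1 also held the letters of both arms in a single promoter entry. A promoter entry was matched by symbol, or else by gene identifier, for 133 of the 169 members, 21 of them called higher and 16 lower. The metal response element was found for 41.4% of these members and for 28.2% of the 27025 genes with an entry. It was found for 12 of the 21 higher and 5 of the 16 lower. The 27025 genes include genes not tested here, and no share over the tested genes was taken. The left arm was found for 12% of these members, against 8.14% of all genes with an entry, and the right arm for 30.8%, against 24.7%. Of the called genes, 3 of 21 higher and 4 of 16 lower had the left arm, and 6 of 21 and 6 of 16 the right arm. These are matches of letters, not sites. A gene with several promoter entries counted if any of them matched, with 32851 entries in all, so more entries give more room for a match. The motifs and shown promoters were chosen with the values known. Mt1 and Mt2, the metallothioneins that bind zinc and copper, were called higher, by 0.32 ± 0.10 (SE; adjusted p = 0.0474) and 0.73 ± 0.15 (SE; adjusted p = 0.00842). The Mt1 probe held the same rank on all 3 knockdown arrays, which quantile normalisation turns into 1 shared level of 15.14.

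Of 35 genes in the families of plasma membrane amino acid carriers 3 rose and 8 fell, and the class median was -0.06. Classes were set by family number. This one therefore also holds Slc6a2, Slc6a3 and Slc6a8, named further on with other substrates, and Slc7a6os, which is no carrier. The shares were 8.57% higher and 22.9% lower, against 13.9% and 13.1% of all tested genes, and with the trended robust variance 6 were higher and 6 lower. Slc6a7, the sodium-dependent proline transporter found mainly in brain, measured 6.40, 6.26 and 6.62 in control samples. In knockdown samples it measured 5.78, 5.64 and 5.09. Knockdown replicate 3 was the lowest array, all 3 lay below the controls, and the change of -0.92 ± 0.18 (SE; adjusted p = 0.00773) was the largest measured fall of the members. Slc38a2, or SNAT2, a sodium-coupled importer of small neutral amino acids, was at 11.65, 11.79 and 11.72 against 10.99, 11.09 and 11.13. The groups stood well apart, a change of -0.65 ± 0.10 (SE; adjusted p = 0.00287). The other tested probes of Slc38a2 gave 0.17 (adjusted p = 0.515) and 0.12 (adjusted p = 0.713), and the mean over its probes was not called (adjusted p = 0.543).

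Of the 6 Slc1 genes, 3 fell. Slc1a4, or ASCT1, an exchanger of alanine, serine and cysteine, was at 9.57, 9.21 and 9.56 in control and at 8.89, 8.98 and 8.60 in knockdown samples (change of -0.62 ± 0.14, SE; adjusted p = 0.0142). The glutamine exchanger Slc1a5, or ASCT2, was near background, at 5.35, 5.50 and 5.53 against 5.08, 4.93 and 4.91, with 1 knockdown array above background. Neither gene's groups overlapped, and Slc1a5 changed by -0.48 ± 0.11 (SE; adjusted p = 0.0121). Slc1a3, the glutamate transporter known as GLAST in glia, measured 9.22, 9.36 and 9.32 against 9.07, 8.92 and 8.88, a change of -0.34 ± 0.11 (SE; adjusted p = 0.0426). Its adjusted p lay between 0.0595 and 0.121 without control replicate 1, 2 or 3 or without knockdown replicate 2 or 3. Slc38a5, which carries glutamine and other neutral amino acids, changed by -0.43 ± 0.12 (SE; adjusted p = 0.0339). Its adjusted p was 0.0719 to 0.106 on leaving out any array other than knockdown replicate 1.

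Of the 3 rises among amino acid carriers, 2 were in the Slc7 family. Slc7a3, or CAT3, a carrier of arginine and lysine, averaged 10.66 ± 0.12 (SD, n = 3) on the control arrays and 11.14 ± 0.13 (SD, n = 3) on the knockdown arrays. This rise of 0.48 ± 0.12 (SE; adjusted p = 0.0171) had no overlap between the groups, and the adjusted p was 0.0505, 0.0604 and 0.0599 without control replicate 1, control replicate 2 and knockdown replicate 3. Slc7a8, or LAT2, which exchanges large neutral amino acids, measured 5.15, 5.03 and 4.89 against 5.50, 5.50 and 5.90. It rose by 0.61 ± 0.14 (SE; adjusted p = 0.0132), with 1 control array not above background. Slc7a7, or y+LAT1, showed 8.26, 8.17 and 8.08 against 8.33, 8.59 and 8.72. Its brightest probe was not called (0.37 ± 0.13, SE; adjusted p = 0.0589), while its other probe was called higher (0.67, adjusted p = 0.0107). On the authors' ratios, 5 amino acid carriers were called higher and 5 lower, with a class median of 0.01. With arrays left out in turn, 4 to 8 of the class were called lower.

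**Figure D2:**
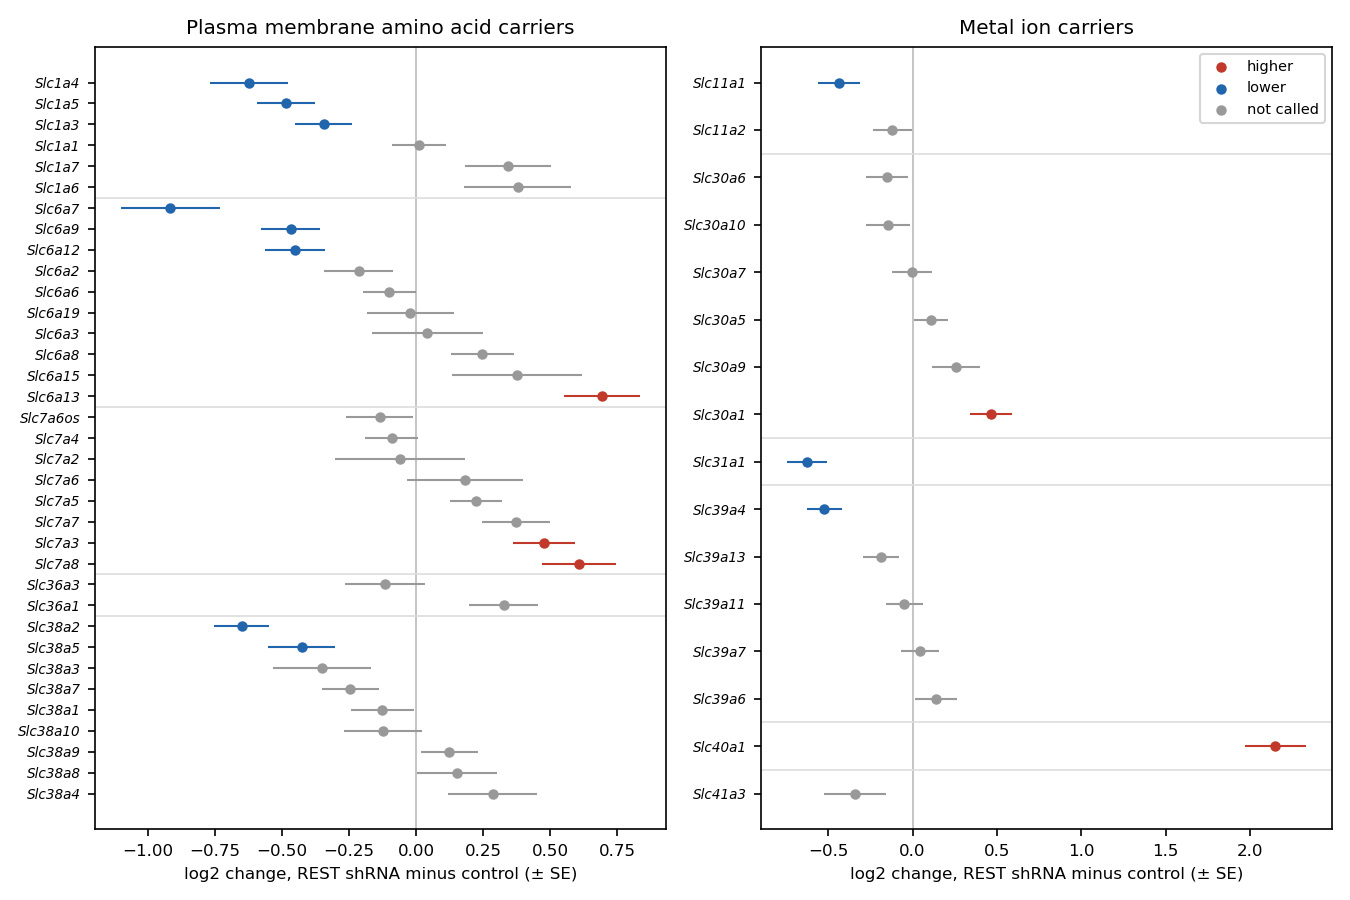
Log2 change in REST shRNA against control, with its SE as a line, for 35 genes in the families of plasma membrane amino acid carriers (left) and 16 metal carriers (right). Lines stand between families, and red is called higher, blue lower and grey not called. Slc7a6os is no carrier but shares the symbol's start; Slc40a1 lies alone at 2.15 on the right, and the Slc1 genes run from -0.62 to 0.38.

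The carriers of neuronal transmission and neuronal ion balance moved in both directions. Of 34 such genes on the array, 19 were tested, and 3 rose and 6 fell. These were 15.8% and 31.6% of the tested carriers, against 13.9% and 13.1% of all tested genes, and the difference was not tested. Slc6a13, a GABA transporter, measured 5.34, 5.19 and 5.19 in control and 5.85, 6.23 and 5.72 in knockdown samples. Its groups did not overlap, and the rise was 0.69 ± 0.14 (SE), or 1.62-fold (adjusted p = 0.00863). Slc12a2, or NKCC1, which brings sodium, potassium and chloride into the cell, was at 10.34, 10.55 and 10.54 against 11.22, 10.92 and 11.15. Both of its tested probes were called higher, by 0.62 ± 0.12 (SE; adjusted p = 0.00716) and 0.76 (adjusted p = 0.00193). Slc17a9, the vesicular nucleotide transporter, was at 7.86, 7.57 and 8.13 against 8.17, 8.43 and 8.54. The lowest knockdown array of Slc17a9 stood just above the highest control array, and the rise was 0.53 ± 0.16 (SE; adjusted p = 0.0393). Its adjusted p lay between 0.0888 and 0.124 without control replicate 1 or 2 or without knockdown replicate 2 or 3.

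Besides Slc6a7, Slc38a2 and Slc1a3, the falls were in Slc12a7, Slc6a9 and Slc6a12. Slc12a7, or KCC4, which carries potassium and chloride out of the cell, was at 8.12, 7.88 and 7.92 in control and at 7.60, 7.21 and 6.88 in knockdown samples. Its change was -0.74 ± 0.18 (SE; adjusted p = 0.0156). Of the 6 Slc12 genes tested, Slc12a2 rose and Slc12a7 fell, and Slc12a4, near background, was not called (0.01, adjusted p = 0.984). Slc6a9, or GlyT1, the glycine transporter, was at 7.16, 7.0 and 7.15 against 6.68, 6.72 and 6.51. The change of Slc6a9 was -0.47 ± 0.11 (SE; adjusted p = 0.0148). Slc6a12, a betaine and GABA transporter, measured 5.46, 5.26 and 5.22 against 4.91, 4.90 and 4.78 and was not above background on any knockdown array. Set against the lowest level that counts as above background, it was at least 1.23-fold lower, a bound that was not tested. The adjusted p of 0.0179 belongs to its measured change of -0.45. Slc6a12 met the detection rule through the control arrays alone. The adjusted p was 0.0536 for Slc12a7 without control replicate 1, and 0.052 for Slc6a9 without knockdown replicate 3. For Slc6a12 it was 0.0575 without control replicate 1 and 0.0603 without knockdown replicate 3.

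Slc32a1, which loads GABA and glycine into synaptic vesicles, measured 7.10, 6.95 and 6.94 in control samples and 6.35, 6.82 and 5.67 in knockdown samples. All knockdown arrays were below the controls, but they spread widely, and the change of -0.72 ± 0.24 (SE) missed the threshold (adjusted p = 0.058). The dopamine transporter Slc6a3 (0.04, adjusted p = 0.900), the noradrenaline transporter Slc6a2 (-0.21, adjusted p = 0.257) and the neuronal glutamate transporter Slc1a1 (0.01, adjusted p = 0.951) were not called. Neither were the taurine carrier Slc6a6, the creatine carrier Slc6a8, the neutral amino acid carriers Slc6a15 and Slc38a1, the sodium and calcium exchanger Slc8a1, or the lysosomal sialic acid carrier Slc17a5. Their changes ran from -0.15 for Slc17a5 to 0.38 for Slc6a15. A further 15 carriers of the list were not tested, and 12 of these were above background on no array. Among these 12 was Slc12a5, or KCC2, the chloride exporter of mature neurons. The control arrays averaged an intensity of -1.87 ± 1.29 (SD, n = 3) and the knockdown arrays -6.00 ± 2.71 (SD, n = 3), on a scale where 0 is background. Slc18a3, the vesicular acetylcholine transporter, was at 2.07 ± 4.12 (SD, n = 3) and 9.10 ± 4.93 (SD, n = 3). The vesicular monoamine carriers Slc18a1 and Slc18a2, the vesicular glutamate carrier Slc17a6 and the glycine transporter Slc6a5 were likewise above background on no array.

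The other ion exchangers and cotransporters showed 1 further rise and 1 further fall, for 2 and 2 of 20 in all. Slc4a2, or AE2, which exchanges chloride for bicarbonate, was at 8.42, 8.31 and 8.26 in control and at 8.73, 8.77 and 8.81 in knockdown samples. The arrays of each group lay close together, and the rise was 0.44 ± 0.10 (SE; adjusted p = 0.0139). Slc9a8, a sodium and proton exchanger of the Golgi, measured 7.83, 7.80 and 8.01 against 7.31, 7.20 and 6.74. The groups did not overlap on this probe, with a change of -0.80 ± 0.16 (SE; adjusted p = 0.00712), but its other probes gave -0.30 (adjusted p = 0.0969) and -0.27 (adjusted p = 0.224).

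The families of sugar carriers, again set by family number, gave 2 rises and 1 fall among 11 genes. Slc5a4b, of the sodium and glucose cotransporter family, measured 4.41, 4.38 and 4.46 in control samples and 6.33, 6.43 and 6.55 in knockdown samples. It was above background on every knockdown array and on no control array, so it met the detection rule through the knockdown arrays alone. Against the background limit it was at least 2.68-fold higher, a bound that was not tested. The adjusted p of 1.15e-05 belongs to its measured change of 2.02. Its promoter is shown because of this step from background. It is RefSeq's entry on GRCm38.p6 at chr10:76110969-76111268, minus strand, printed 5′ to 3′ on the strand of the gene, and capitals mark GGACAG, the right arm of RE1, on the opposite strand.
Slc5a4b: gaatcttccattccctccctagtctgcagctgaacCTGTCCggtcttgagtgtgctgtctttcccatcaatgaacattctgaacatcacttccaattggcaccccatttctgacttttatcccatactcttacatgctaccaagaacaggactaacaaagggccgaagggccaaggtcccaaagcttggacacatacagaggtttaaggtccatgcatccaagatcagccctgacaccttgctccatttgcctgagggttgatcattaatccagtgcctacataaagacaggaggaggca

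The match in Slc5a4b begins at position -215 from the start, and the left arm was not found in this window. Slc2a6, a facilitative hexose transporter of intracellular membranes, was at 5.06, 5.32 and 5.22 in control and at 6.28, 5.80 and 5.81 in knockdown samples. All knockdown arrays were above the controls, a rise of 0.77 ± 0.15 (SE; adjusted p = 0.00716). Slc45a3, also called prostein and placed in a family of sugar carriers, was at 6.87, 6.41 and 6.86 against 6.12, 6.16 and 5.96. It changed by -0.64 ± 0.14 (SE; adjusted p = 0.0131), without overlap. Slc2a8, another facilitative hexose transporter, was not called on its brightest probe (-0.29, adjusted p = 0.152), while 1 other probe was called lower (-0.55, adjusted p = 0.023) and a further one was not (-0.21, adjusted p = 0.238).

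Carriers of vitamins, haem and cofactors gave 2 rises and no fall among 10 genes. Slc46a1, the proton-coupled folate transporter of the gut, which was also described as a haem carrier, measured 5.55, 5.09 and 5.07 in control and 6.33, 6.28 and 7.12 in knockdown samples. The groups did not overlap, and knockdown replicate 3 was the highest array. The rise was 1.34 ± 0.23 (SE), or 2.54-fold (adjusted p = 0.00397), with 1 control array not above background. Slc23a3, an orphan member of the ascorbate transporter family, was at 4.84, 5.0 and 5.80 against 6.16, 6.24 and 6.65. It was above background on 1 control array and on every knockdown array, and the rise was 1.14 ± 0.24 (SE), or 2.20-fold (adjusted p = 0.00966). With the dim control arrays set to the background limit, the rise of Slc23a3 was 2.14-fold.

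The mitochondrial carriers of the Slc25 family, which link the matrix to the cytosol, gave 4 rises and 4 falls among 26 genes, with a median of 0.00. Slc25a20, which brings acylcarnitines into mitochondria for fatty acid oxidation, was at 10.06, 10.02 and 10.17 in control and at 11.01, 10.90 and 10.86 in knockdown samples. Both of its tested probes were called higher, by 0.84 ± 0.10 (SE; adjusted p = 0.00114) and 0.52 (adjusted p = 0.0203). The S-adenosylmethionine carrier Slc25a26 measured 7.52, 7.10 and 7.34 against 7.90, 7.98 and 8.43, a rise of 0.78 ± 0.17 (SE; adjusted p = 0.00992). The dicarboxylate carrier Slc25a10 measured 5.38, 4.97 and 5.74 against 5.96, 6.13 and 6.34, a rise of 0.78 ± 0.19 (SE; adjusted p = 0.0174). In neither did the groups overlap, though the lowest knockdown array of Slc25a10 was close to the highest control array, 1 of its control arrays was not above background, and its adjusted p was 0.064 without knockdown replicate 3.

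Both carriers known to bring pyrimidine nucleotides into mitochondria fell. Slc25a36 was at 10.95, 11.13 and 11.31 in control and at 10.66, 10.44 and 10.48 in knockdown samples, a change of -0.60 ± 0.13 (SE; adjusted p = 0.00918). Slc25a33 was at 10.79, 10.91 and 10.75 against 10.25, 10.38 and 10.27, a change of -0.52 ± 0.10 (SE; adjusted p = 0.008). Neither had overlapping groups. The citrate carrier Slc25a1 (-0.36, adjusted p = 0.0481) and the glutathione carrier Slc25a39 (-0.36, adjusted p = 0.0311) were also called lower. The oxoglutarate carrier Slc25a11 had probes that went opposite ways. Its brightest probe was called higher (0.39, adjusted p = 0.035), as was another (0.52, adjusted p = 0.0262), and a further probe was called lower (-0.46, adjusted p = 0.0129). The calls of Slc25a1, Slc25a39 and Slc25a11 were each lost on leaving out 5 of the 6 arrays in turn. The adjusted p then lay between 0.0704 and 0.15 for Slc25a1 (all but control replicate 3), between 0.0565 and 0.0956 for Slc25a39 (all but control replicate 3), and between 0.06 and 0.108 for Slc25a11 (all but knockdown replicate 1).

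Of 22 nucleoside and nucleotide sugar carriers 6 were called higher and 1 lower, with a class median of 0.21. This was 27.3% and 4.55%, against 13.9% and 13.1% of all tested genes, and the replicate block left 3 rises and 1 fall. Most are Slc35 genes. Many of this family bring nucleotide sugars into the Golgi and endoplasmic reticulum for glycosylation, but not all members are known to do so. Of 17 Slc35 genes 5 rose and 1 fell, with a median of 0.27. Slc35b4, a carrier of UDP-xylose and UDP-N-acetylglucosamine, was at 8.35, 8.43 and 8.61 in control and at 8.96, 9.50 and 9.44 in knockdown samples. The knockdown arrays were all above the controls, by 0.83 ± 0.16 (SE; adjusted p = 0.00578). The GDP-fucose carrier Slc35c1 rose by 0.48 ± 0.11 (SE; adjusted p = 0.0149) on its brightest probe, while its other probe gave 0.23 (adjusted p = 0.247). The UDP-galactose carrier Slc35a2 (0.41, adjusted p = 0.0337), the orphans Slc35e1 (0.47, adjusted p = 0.0143) and Slc35e3 (0.40, adjusted p = 0.0412) and the nucleoside carrier Slc29a1, or ENT1 (0.37, adjusted p = 0.038), were also called higher. Slc35a5 was at 5.75, 5.24 and 5.91 against 5.0, 4.90 and 5.09. It was the sole fall of the class, by 0.64 ± 0.17 (SE; adjusted p = 0.0232), without overlap. With arrays left out, the class had 1 gene higher without knockdown replicate 2 and 3 or 4 in the other fits. Without knockdown replicate 2 the adjusted p was 0.0514 for Slc35c1, 0.0508 for Slc35e1, 0.0622 for Slc35a2, 0.111 for Slc35e3, 0.135 for Slc29a1 and 0.0696 for Slc35a5. Slc35a2 and Slc29a1 each lost the call in 5 of the 6 such fits, Slc35e3 and Slc35a5 in 4, and Slc35c1 and Slc35e1 in 2.

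**Figure D3:**
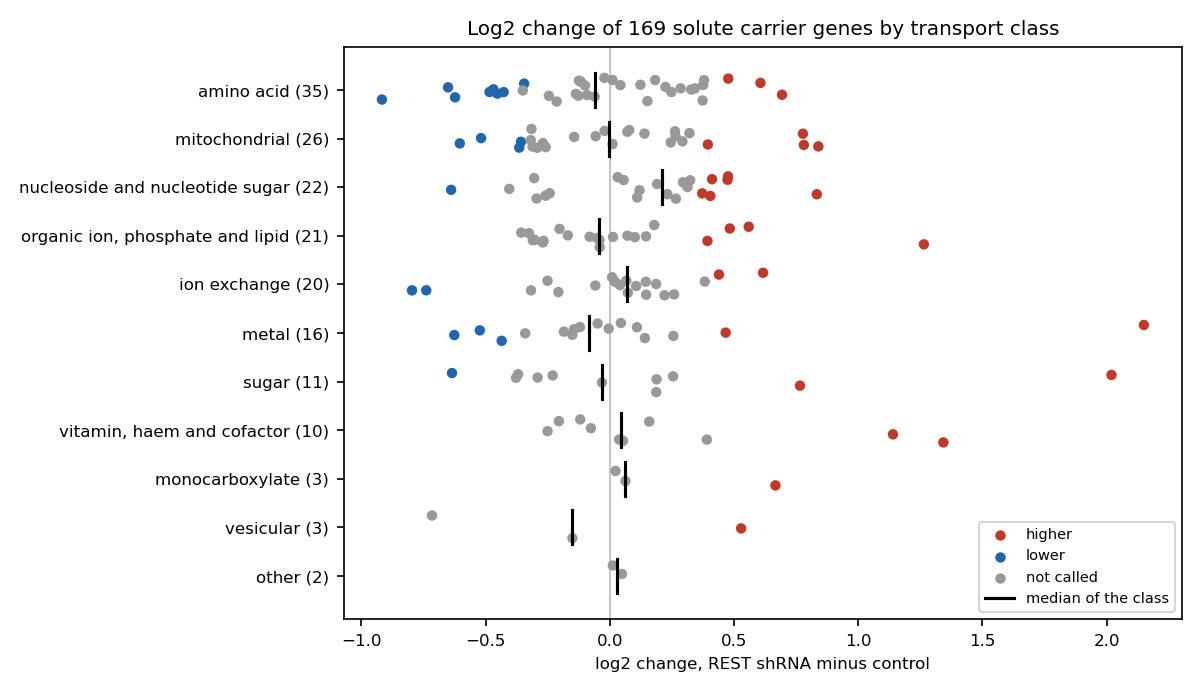
Log2 change in REST shRNA against control for each of the 169 solute carrier genes, by class as set from the family number, with the number of genes in each class. Each point is a gene, red where called higher, blue where called lower and grey where not called, and the bar is the class median. The nucleoside and nucleotide sugar class has its median at 0.21, and the medians of the amino acid and metal classes are -0.06 and -0.08.

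The 21 carriers of organic ions, phosphate and lipids gave 4 rises and no fall. Slc10a3, an orphan of the bile acid cotransporter family, measured 5.82, 5.31 and 5.57 in control and 6.51, 6.76 and 7.22 in knockdown samples. The groups were clearly apart, and the rise was 1.26 ± 0.19 (SE), or 2.40-fold (adjusted p = 0.00259). The choline transporter Slc44a1 was called higher on its brightest probe (0.56 ± 0.14, SE; adjusted p = 0.0205), whereas its other probe gave -0.44 (adjusted p = 0.0747). The fatty acid transport protein Slc27a4 (0.48, adjusted p = 0.0341) and the sodium and sulphate cotransporter Slc13a4 (0.39, adjusted p = 0.0357) were also called higher. None of the 5 organic cation and anion carriers of the Slc22 family was called. Among 3 genes of Slc16, the family of monocarboxylate carriers, Slc16a9 was called higher. It was at 5.63, 5.45 and 6.13 in control and at 6.52, 6.29 and 6.40 in knockdown samples, a rise of 0.67 ± 0.17 (SE; adjusted p = 0.0214) without overlap. On leaving out single arrays the adjusted p was 0.0601 to 0.0699 for Slc16a9 (without control replicate 1 or 2 or knockdown replicate 1 or 3) and 0.0525 to 0.0576 for Slc44a1 (without control replicate 2 or 3 or knockdown replicate 1 or 2). It was 0.0669 to 0.0982 for Slc27a4 (all but control replicate 3) and 0.0548 to 0.111 for Slc13a4 (all but control replicate 3). The symbol rule also caught Slc4a1ap, Slc7a6os, Slc9a3r1 and Slc9a3r2, which are not carriers, and none of these was called. Neither was Slc66a2, a lysosomal membrane protein with PQ-loop repeats (0.05, adjusted p = 0.800).

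Genes with several probes show how far a call rests on 1 probe. Of the 33 solute carrier genes with more than 1 tested probe, 12 had a called probe, and in 10 of these the probes disagreed. Only Slc12a2 and Slc25a20 had every tested probe called the same way. The same share over all tested genes with several probes was not taken. Some disagreeing probes lay near background, such as those of Slc11a1 with control means of 5.16, and leave little room for a fall. Counted by probe, 31 were higher and 22 lower of 216, or 24.5%, against 25.9% of all tested probes. Whichever single array was left out, 23 of the 46 calls were kept, 13 higher and 10 lower. The calls of 19 of these genes also stood in every other setting that tested them, apart from the minimum fold of 1.5. Those with a rise were Slc40a1, Slc5a4b, Slc46a1, Slc10a3, Slc23a3, Slc25a20, Slc35b4, Slc25a26, Slc2a6, Slc6a13, Slc12a2, Slc7a8 and Slc4a2, and those with a fall were Slc6a7, Slc9a8, Slc45a3, Slc31a1, Slc1a4 and Slc25a36.

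**Figure D4:**
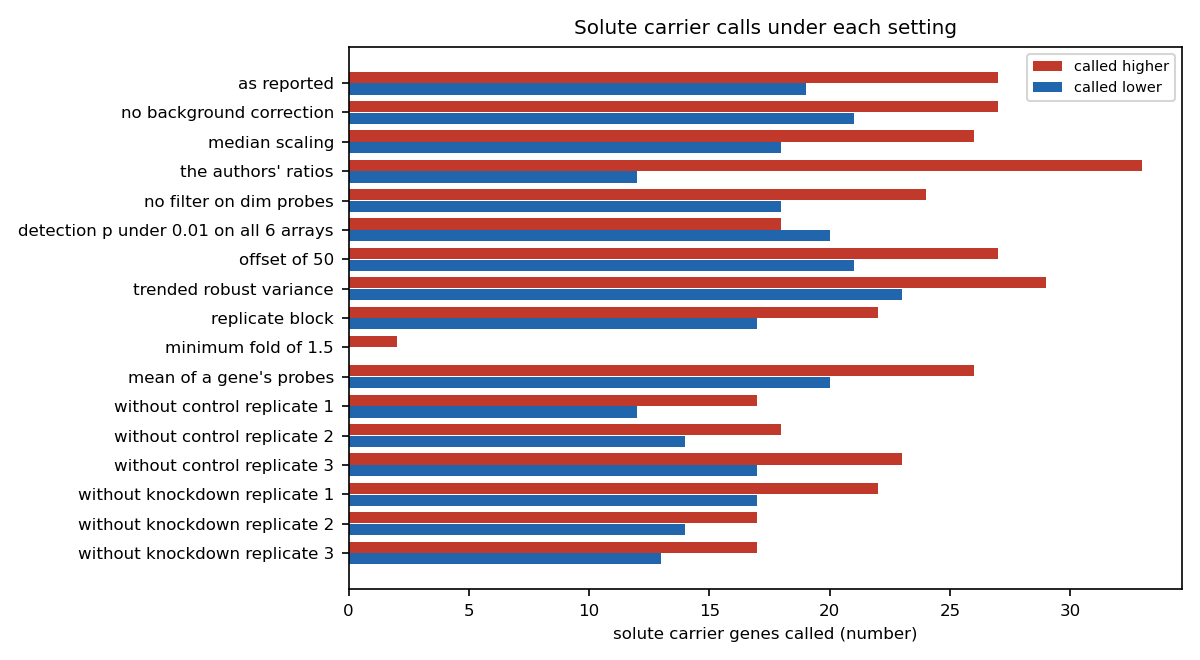
Number of solute carrier genes called higher (red) and lower (blue), on the x axis, in the fit reported here (27 and 19) and under each other setting or with 1 array left out. The authors' ratios give 33 and 12, and a minimum fold of 1.5 gives 2 and 0.

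Membrane transport genes outside the Slc symbols were listed by symbol, as ATP-binding cassette (ABC) genes, ion pumps, aquaporins, organic anion transporters and related genes. Without the metallothioneins, 50 were tested, and 9 were called higher and 9 lower, or 36%, against 27.0% of all tested genes. The ABC genes gave 6 rises and 4 falls among 22 genes, with the largest rise in Abcc5 (1.25) and the largest fall in Abcg4 (-1.01). This count includes Abce1, Abcf1, Abcf2 and Abcf3, which share the symbol's start but are not membrane transporters. Of these, Abcf2 was called higher (0.49, adjusted p = 0.0119). Of 10 sodium and calcium pump subunits, Atp2a2 rose (0.63) and Atp1b2 fell (-1.19). Slco4a1, an organic anion transporter, was called lower (-1.44). These genes were named after their values were seen.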

How the data were processed

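Total RNA of 3 vector control and 3 REST shRNA samples was measured on Illumina bead arrays, and groups came from the sample titles. The deposited intensity per probe is linear and is labelled as not normalised. On each array, 25.3% to 26.3% of these values lay below 0 before the correction described below. The deposited detection score, named a p-value in its header, rises with intensity to 1, and its difference from 1 therefore served as detection p. The authors' ratio table equals, within 0.001 on the log2 scale for 100% of 154182 values, an intensity from which the minimum of its array was taken, with 0.1 added, multiplied by an array factor and divided by a reference per probe. That reference and the software were not given in the sources used here.

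Intensities were background-corrected by normexp from the detection p in limma 3.58.1 (R 4.3.3) with an offset of 16, then arrays were quantile normalised and put on the log2 scale. Tested were all probes whose detection p was under 0.05 on 3 or more of the 6 arrays, with group as the sole term, moderated variance and Benjamini-Hochberg adjustment over all of them. A gene is its brightest tested probe. Where every array of a group was dim, a fold is a bound against the mean of the lowest levels above background. The adjusted p of such a gene is that of its measured change. Precision is limited by having 6 arrays. The fit was tested on simulated data. Members, classes and lists were chosen with earlier results of these data known. The naming rule took the 12 largest rises and falls without overlap, the member with the smallest p of each class otherwise unnamed, the neuronal carriers and genes whose probes disagree. Other called members were named after their values were seen. The closing part gives the alternatives.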

Additional observations from a re-analysis of the deposited data

How the results depend on the processing

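No called gene changed direction under any alternative. The 27 higher and 19 lower solute carriers became 2 and 0 when a minimum fold of 1.5 was tested, which left Slc40a1 and Slc5a4b, and 33 and 12 with the authors' ratios. Leaving out each array gave 17 to 23 higher and 12 to 17 lower. Over all genes, the minimum fold gave 78 higher and 28 lower, the authors' ratios 631 lower, and leaving out each array 784 to 1047 higher and 707 to 965 lower. The median log2 change over the members was 0.11 with the authors' ratios, whose median over all genes was 0.10, -0.021 with a detection p under 0.01 on all 6 arrays, and -0.0090 to 0.048 with an array left out. The authors' ratios made 38 of the 46 calls, 27 higher and 11 lower. Of 736 values of the named genes under the alternatives, 626 kept their call status, 93 lost the call and 17 gained it. The labels do not say whether shared replicate numbers pair the samples, which were treated as unpaired. The deviations of same-numbered samples correlated at -0.06, 0.03 and 0.04, which cannot show that no pairing existed. With the replicate block, 22 members were called higher and 17 lower. Slc32a1, not called at an adjusted p of 0.058, was called in 7 alternatives, among them the trended robust variance (adjusted p = 0.00603). The causes were not tested, other than the fewer samples or stricter tests built into an alternative. Probes near background, such as those of Slc6a12, Slc1a5 and Slc23a3, limit what their changes can show.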
